A study of Mus musculus with 6 samples.

Results

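The insulin-like growth factor (IGF) axis was followed here through 10 genes in cultured mouse granulosa cells of 2 genotypes, Il22r-/- and Il22r+/+. The 10 rows were taken by gene name from the 55860 rows of the deposited count and FPKM tables, and all 10 had enough reads for analysis. They are the ligand gene Igf1, the receptor genes Igf1r and Igf2r, the binding protein genes Igfbp2, Igfbp4, Igfbp5 and Igfbp7, the protease gene Pappa, and the stanniocalcin genes Stc1 and Stc2. The set was drawn up knowing that Stc1 was much higher in Il22r-/- cells, so the genotype differences of these 10 genes are given as a description, with no test.

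Granulosa cells, the somatic cells around the oocyte, were isolated from ovaries on a density gradient and cultured for 12 h in medium with 10% serum. Il22r-/- denotes disruption of the receptor for interleukin-22, a cytokine that signals through STAT3, and the series title places the comparison in the context of ovulation in polycystic ovary syndrome. Each genotype had 3 libraries, and the counted reads per library (M, mega-reads) were 14.95 M to 18.12 M for Il22r-/- against 17.43 M to 17.7 M for Il22r+/+. The labels give no treatment, strain, age, number of animals, deleted exon or tissue restriction of the deletion, and nothing says that the 3 libraries of a genotype came from separate animals, so p-values measure the spread between these libraries, which may be technical.

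IGF-1 acts on granulosa cells through the type 1 IGF receptor, a tyrosine kinase, and in the rodent ovary it amplifies the response to follicle-stimulating hormone. Outside the cell most IGF is held by IGF binding proteins, which keep it from the receptor. The metalloproteinase PAPP-A cuts IGFBP-4, IGFBP-5 and IGFBP-2 and so frees the ligand, while the glycoproteins stanniocalcin-1 and stanniocalcin-2 bind PAPP-A and block it. The counts measure transcripts only: protein, protease activity and free IGF were not measured.

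The libraries carried the granulosa genes Inha, Inhba, Foxl2 and Nr5a1, Inha at 2605 ± 116 CPM in Il22r-/- and 3202 ± 429 CPM in Il22r+/+ (counts per mega-read after TMM normalisation, mean ± SD, n = 3 each). The aromatase gene Cyp19a1, a marker of mature granulosa cells, had 1 read over the Il22r-/- libraries and 36 over the Il22r+/+ libraries. Those 36 were unevenly spread, at 8, 3 and 25 reads in Il22r+/+ replicates 1 to 3. The receptor gene for follicle-stimulating hormone, Fshr, was higher in Il22r-/- (313 reads in Il22r-/- and 13 in Il22r+/+, edgeR adjusted p = 1.45e-05), as were Amhr2, Nr5a2 and Inhba, while Foxl2 and Nr5a1 were lower, making 4 higher and 2 lower of 10 tested granulosa markers. Il22ra1, the receptor chain taken to be the targeted gene, was nearly unread, at 5, 2 and 0 reads across the Il22r-/- libraries against 1, 5 and 4 across those of Il22r+/+, too few to check the genotype labels. The share of mitochondrial reads was 2.08% to 2.72% in Il22r-/- and 2.64% to 2.82% in Il22r+/+. Il22r-/- replicate 3 stood apart on the second principal component (-14.48, against -1.22 to 8.93 in the other libraries). Without it the log2 fold changes of the 10 genes kept their sign, Igfbp2 moving to -2.52 and Igf1r to 0.56. Across the transcriptome 6963 of 15227 tested genes (45.7%) passed the edgeR threshold of an adjusted p under 0.05, 23.6% of tested genes being higher and 22.1% lower in Il22r-/-.

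Markers of cell types other than granulosa cells were also counted. All marker lists, that of granulosa cells included, were chosen with earlier results of these data known, so their adjusted p-values are no independent evidence. The stromal sum was 225.7 to 384.8 CPM in Il22r-/- and 681.3 to 703.2 CPM in Il22r+/+, led by Col3a1, with 1 of 6 tested markers higher and 2 lower. Col3a1 and Dcn were lower, Dcn at 10.6 ± 2.59 CPM in Il22r-/- and 243 ± 64.2 CPM in Il22r+/+. Col1a2 went the other way, at 61.3 ± 32.9 CPM in Il22r-/- and 1.61 ± 1.18 CPM in Il22r+/+. Tcf21, not tested, had 72 reads in Il22r-/- and 0 in Il22r+/+, and Pdgfra, Lum and Col1a1 were not called. The sum, but not every marker, was thus lower together with Igf1 and the Igfbp genes. The part of stromal cells in their levels was not tested. Smooth muscle and pericyte markers summed to 366.6 to 594.5 CPM in Il22r-/- and 282.3 to 337.1 CPM in Il22r+/+, mostly Acta2, with 5 of 8 higher and 2 lower. Endothelial markers (4.20 to 7.79 CPM in Il22r-/- and 3.74 to 5.63 CPM in Il22r+/+, mainly Tek, 2 of 3 higher and 1 lower) and oocyte markers (0.657 to 2.51 CPM in Il22r-/- and 0.533 to 1.11 CPM in Il22r+/+, mainly Gdf9, 0 of 1 called) were near the lower limit of the counts. Macrophage, mesothelial and theca lists are given below, beside Igf1, the Igfbp genes and Stc1 respectively. No marker was at 0 in every library.

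The regions upstream of Igfbp2 and Igfbp4, the members furthest below Il22r+/+ in Il22r-/-, and of Igfbp5, the neighbour of Igfbp2, are shown because all of them were lower in Il22r-/-. RefSeq promoters (GRCm38.p6, the assembly called mm10) were matched by symbol for 8 of the 10 genes, Stc1 and Pappa being the others. Igfbp2 had 2 listed promoters, and only the nearer to its annotated start was used. The Igf1 window, chr10:87860861-87861110, lies inside the gene as annotated, which starts at 87858265. Each line holds the 250 bases before the RefSeq start, 5′ to 3′ on the gene's own strand, at chr1:72824230-72824479 (plus strand) for Igfbp2, chr11:99040994-99041243 (plus strand) for Igfbp4 and chr1:72874866-72875115 (minus strand) for Igfbp5. Capitals mark matches to the motifs named after the sequences.
Igfbp2: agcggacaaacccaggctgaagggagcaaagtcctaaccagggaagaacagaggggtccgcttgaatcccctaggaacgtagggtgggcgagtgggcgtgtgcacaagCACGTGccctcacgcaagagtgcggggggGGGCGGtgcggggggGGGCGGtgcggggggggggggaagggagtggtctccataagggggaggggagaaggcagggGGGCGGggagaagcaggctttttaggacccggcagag
Igfbp4: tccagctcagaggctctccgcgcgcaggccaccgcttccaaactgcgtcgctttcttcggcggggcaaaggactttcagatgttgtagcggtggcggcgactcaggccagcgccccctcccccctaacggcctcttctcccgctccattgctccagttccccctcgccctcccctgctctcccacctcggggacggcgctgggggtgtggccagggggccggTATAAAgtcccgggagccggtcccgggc
Igfbp5: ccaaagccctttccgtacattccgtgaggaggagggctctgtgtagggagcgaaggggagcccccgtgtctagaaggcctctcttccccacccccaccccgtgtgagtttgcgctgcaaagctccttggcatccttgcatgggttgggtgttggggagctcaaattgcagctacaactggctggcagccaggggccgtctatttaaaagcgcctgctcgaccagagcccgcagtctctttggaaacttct

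Each motif was searched on both strands. The STAT motif TTCNNNGAA was in 0 of the 8 member promoters and in 7.02% of all 32851 RefSeq promoters of the same length. The FOXO motif GTAAACA (3.17% of all), the NR5A motif CAAGGTCA (1.33%) and the cyclic AMP response motif TGACGTCA (1.55%) were likewise in none of the 8. The SP1 motif GGGCGG was in 4 of the 8 (Igf1r, Igf2r, Igfbp2 and Igfbp7) and in 32.7% of all, and the hypoxia response motif ACGTG in 3 of the 8 (Igf2r, Igfbp2 and Igfbp7) and in 16.6% of all. In Igfbp2 and in Igf2r every match to the hypoxia motif lay in the palindrome CACGTG, which holds it on both strands. TATAAA, searched after the sequences had been seen, was in Igfbp4 alone among the 8, starting 28 bases upstream, and in 12.4% of all promoters. These are matches of letters, and a window without a match says nothing of a factor's binding elsewhere. GC content was 52.8% (Igf1) to 77.6% (Igf1r) in the 8 member windows, against a median of 52.4% over all promoters. The motif shares were not adjusted for it, so no excess or lack of a motif is read from them.

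In levels per length (FPKM), Igfbp2 and Igfbp4 were the most abundant of the 10 transcripts in both genotypes and Pappa the least. In Il22r-/- the order of mean FPKM was Igfbp2 (361), Igfbp4 (87.9), Igf1 (50.4), Igfbp7 (41.8), Igf2r (24.1), Igfbp5 (22.9), Stc1 (14.1), then Stc2 and Igf1r (10.5 each), and Pappa (0.505). In Il22r+/+ it was Igfbp2 (1733), Igfbp4 (332), Igf1 (97.0), Igfbp7 (58.9), Igfbp5 (45.2), Igf2r (28.9), Stc2 (14.0), Igf1r (6.53), Stc1 (0.892) and Pappa (0.845). Stc1 thus stood above Stc2 in every Il22r-/- library and beside Pappa, with overlapping values, in the Il22r+/+ libraries. Other neighbours whose libraries overlapped were Igf1 with Igfbp7, Igf2r with Igfbp5, Stc2 with Igf1r and Stc1 with Igf1r in Il22r-/-, and Igfbp7 with Igfbp5 in Il22r+/+.

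**Figure D1:**
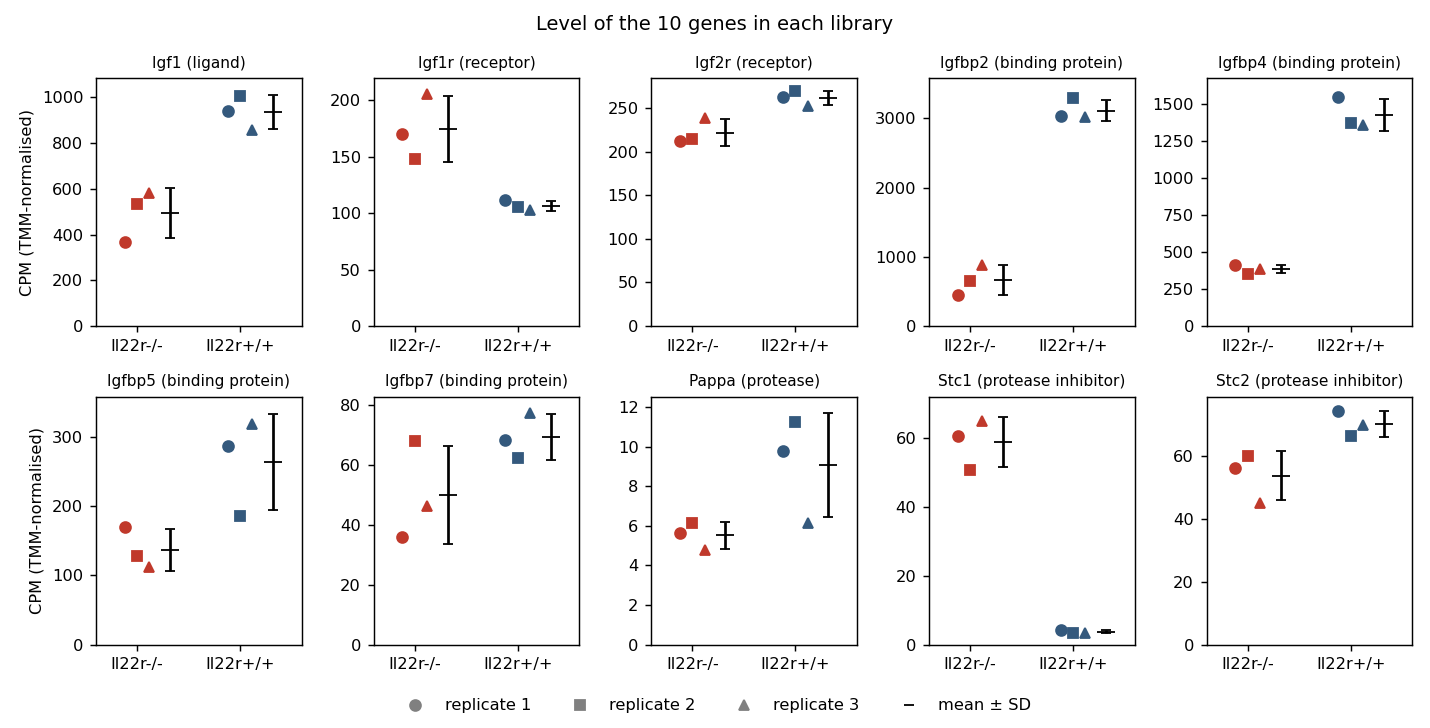
Level of each of the 10 genes in CPM (linear axis from 0) in the 3 Il22r-/- libraries (red) and the 3 Il22r+/+ libraries (blue), with the mean ± SD beside the points. Stc1 lies at 50.7 to 65.0 CPM in Il22r-/- and at 3.34 to 4.15 CPM in Il22r+/+, Igfbp2 and Igfbp4 are far lower in Il22r-/-, and Igfbp7 overlaps between the genotypes.

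Transcripts of the ligand were about as far apart between the genotypes as those of Igfbp5, and in the lower direction in Il22r-/-. Igf1 (ENSMUSG00000020053, mm10 chromosome 10, 87858265 to 87937042, plus strand) had 368.9, 531.9 and 581.5 CPM in Il22r-/- replicates 1 to 3 and 939.4, 1006 and 858.2 CPM in Il22r+/+ replicates 1 to 3. The genotypes did not overlap, and Il22r-/- replicate 1 was the lowest library. The log2 fold change, Il22r-/- minus Il22r+/+, was -0.92 ± 0.16 (SE of the edgeR fit), or 1.89-fold lower. Macrophages are a known source of Igf1, and their markers moved the other way: the list of 12, led by the lysozyme gene Lyz2, summed to 59.8, 88.7 and 28.8 CPM in Il22r-/- replicates 1 to 3 and to 8.83 to 11.6 CPM in Il22r+/+, with 9 of 9 tested markers higher. The part of these cells in the Igf1 level was not tested. In bulk RNA, fewer cells of a type and less RNA per cell cannot be told apart.

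The 2 receptor genes differed in opposite directions. Igf1r (ENSMUSG00000005533, chromosome 7, 67952827 to 68233668, plus strand), the signalling receptor, had 170.4, 147.7 and 205.7 CPM in Il22r-/- and 111.6, 105.4 and 102.9 CPM in Il22r+/+. All Il22r-/- libraries were higher, replicate 3 the most, with a log2 fold change of 0.71 ± 0.11 (1.64-fold). Igf2r (ENSMUSG00000023830, chromosome 17, 12682406 to 12769664, minus strand), the mannose 6-phosphate receptor that carries IGF-2 to lysosomes, had 212.2, 215.0 and 239.5 CPM in Il22r-/- and 262.9, 269.7 and 252.9 CPM in Il22r+/+. Its genotypes did not overlap but lay close, at a log2 fold change of -0.24 ± 0.08, which was -0.13 with library size as the only scaling. The ratio of Igf1r to Igf2r in FPKM was 0.434 ± 0.0485 in Il22r-/- and 0.226 ± 0.0093 in Il22r+/+.

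Among binding proteins, Igfbp2 and Igfbp4 were several-fold lower in Il22r-/- and Igfbp5 less so, while Igfbp7 overlapped between the genotypes. Igfbp2 (ENSMUSG00000039323, chromosome 1, 72824503 to 72852474, plus strand), which encodes an inhibitory carrier of IGFs, had 444.6, 654.2 and 878.2 CPM in Il22r-/- and 3032, 3298 and 3014 CPM in Il22r+/+. The Il22r-/- libraries spread widely, yet the highest of them was far under the lowest Il22r+/+ library. The log2 fold change was -2.24 ± 0.22, or 4.73-fold lower. Igfbp4 (ENSMUSG00000017493, chromosome 11, 99041244 to 99054392, plus strand), whose product is the main substrate of PAPP-A, had 412.8, 354.6 and 386.2 CPM in Il22r-/- and 1550, 1372 and 1359 CPM in Il22r+/+. Its libraries agreed closely within each genotype, and the log2 fold change was -1.89 ± 0.10 (3.71-fold lower).

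Igfbp5 lies on chromosome 1 (ENSMUSG00000026185, 72857932 to 72874884, minus strand), 5457 bases from the end of Igfbp2 and facing it tail to tail. Its product is a second PAPP-A substrate that also binds matrix. Igfbp5 had 169.9, 127.6 and 111.9 CPM in Il22r-/- and 286.9, 186.3 and 318.6 CPM in Il22r+/+. The genotypes did not overlap, but Il22r+/+ replicate 2 came near Il22r-/- replicate 1, and the log2 fold change was -0.95 ± 0.23. The Il22r-/- library with the most Igfbp5 had the least Igfbp2, so these neighbours were not ordered alike among those 3 libraries. Igfbp7 (ENSMUSG00000036256, chromosome 5, 77349240 to 77408041, minus strand), a secreted matrix protein with only weak affinity for IGFs, had 35.9, 68.0 and 46.2 CPM in Il22r-/- and 68.3, 62.3 and 77.4 CPM in Il22r+/+. Il22r-/- replicate 2 lay inside the Il22r+/+ range, and the log2 fold change of -0.47 ± 0.22 was between -0.77 without that library and -0.28 without Il22r-/- replicate 1. Polr2b overlaps 7.03% of the Igfbp7 exon length on the other strand.

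Summed over Igfbp1 to Igfbp7 in FPKM, binding protein transcripts came to 402.6, 529.4 and 638.8 in Il22r-/- and to 2171, 2246 and 2133 in Il22r+/+. Igfbp2 made up 67.7% ± 7.99 of the sum in Il22r-/- and 79.3% ± 1.94 in Il22r+/+. Igfbp4 held a like share, 17.5% ± 5.02 in Il22r-/- and 15.2% ± 1.26 in Il22r+/+. The shares of Igfbp5 (4.68% ± 2.10 in Il22r-/- and 2.08% ± 0.594 in Il22r+/+), Igfbp7 (8.07% ± 2.39 in Il22r-/- and 2.71% ± 0.369 in Il22r+/+) and Igfbp6 (1.94% ± 0.724 in Il22r-/- and 0.517% ± 0.0889 in Il22r+/+) were larger in each Il22r-/- library than in any Il22r+/+ library. Set against the ligand, summed binding protein FPKM was 10.4 ± 0.562 times Igf1 FPKM in Il22r-/- and 22.6 ± 1.21 times in Il22r+/+. This ratio varied little within a genotype, and the Il22r-/- libraries had the same order for Igf1 as for Igfbp2.

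Most listed markers of the ovarian surface epithelium and mesothelium moved with the binding proteins. The list of 8 summed to 33.8, 20.1 and 22.5 CPM in Il22r-/- replicates 1 to 3 and to 667 to 677.6 CPM in Il22r+/+. Gpm6a led it, with a mean of 387 CPM in Il22r+/+. Of 8 tested markers, 6 were called lower and 0 higher. The keratin genes Krt7 (156 reads in Il22r-/- and 73 in Il22r+/+) and Krt19 (157 in Il22r-/- and 93 in Il22r+/+) went the other way and were not called. Within Il22r-/-, the library with the highest sum, replicate 1, had the lowest Igfbp2 and the highest Igfbp4 and Igfbp5. The part of these cells in the Igfbp levels was not tested.

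**Figure D2:**
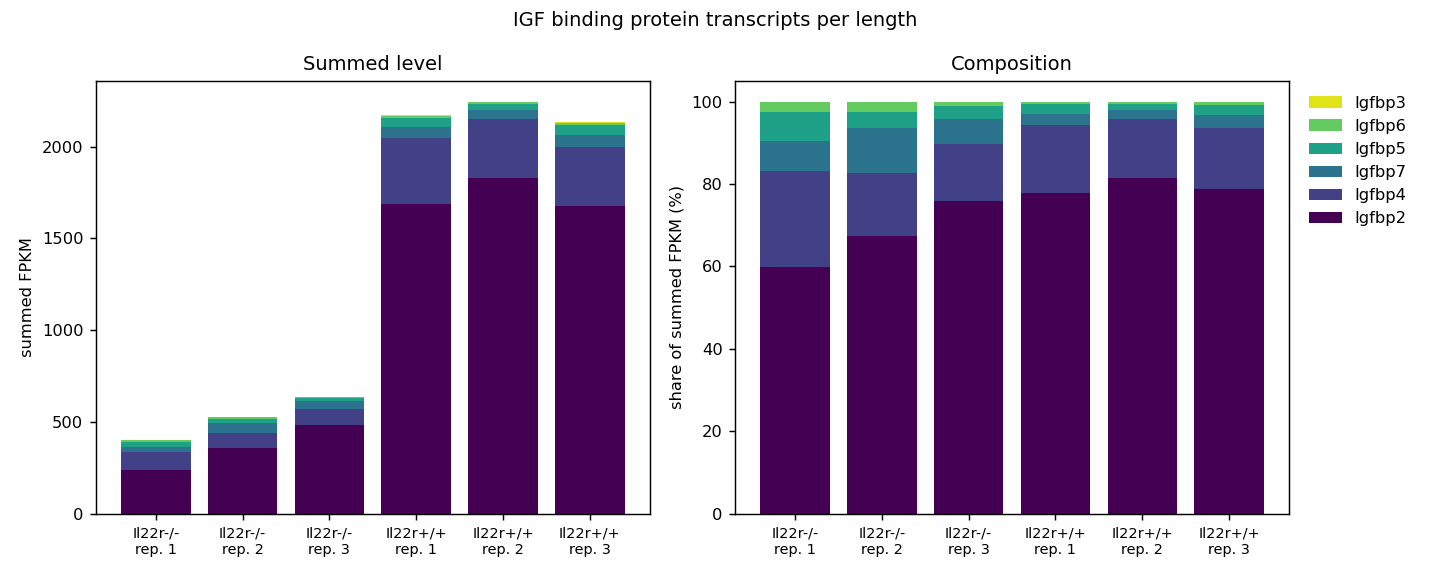
Summed FPKM of the IGF binding protein genes in each library (left, bars from 0) and the share of each gene in that sum in percent (right), with Il22r-/- libraries left of Il22r+/+ libraries. The sum is 402.6 to 638.8 FPKM in Il22r-/- and 2133 to 2246 FPKM in Il22r+/+, and Igfbp2 is the largest part in every library.

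The protease transcript was scarce and lower in Il22r-/-. Pappa (ENSMUSG00000028370, chromosome 4, 65124174 to 65357509, plus strand) had 5.62, 6.14 and 4.79 CPM in Il22r-/- and 9.77, 11.3 and 6.16 CPM in Il22r+/+, on 73 to 115 reads per Il22r-/- library and 104 to 189 per Il22r+/+ library. The highest Il22r-/- library all but met Il22r+/+ replicate 3, so the genotypes barely stood apart. The log2 fold change was -0.71 ± 0.23, and -0.53 without Il22r+/+ replicate 2.

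The stanniocalcins parted from each other. Stc1 (ENSMUSG00000014813, chromosome 14, 69029238 to 69041804, plus strand) had 60.4, 50.7 and 65.0 CPM in Il22r-/- and 4.15, 3.34 and 3.43 CPM in Il22r+/+. Every Il22r-/- library was more than 10 times above every Il22r+/+ library, with 3090 Stc1 reads over the Il22r-/- libraries and 185 over the Il22r+/+ libraries. The log2 fold change was 4.01 ± 0.14, or 16.1-fold higher, and stayed between 3.91 and 4.11 when any 1 library was left out. Stc2 (ENSMUSG00000020303, chromosome 11, 31357307 to 31370074, minus strand) had 56.5, 60.2 and 45.0 CPM in Il22r-/- and 74.5, 66.5 and 70.1 CPM in Il22r+/+. It was lower in all Il22r-/- libraries, by a small margin, at a log2 fold change of -0.38 ± 0.11. Stc1 made up 57.3% ± 6.55 of the summed stanniocalcin FPKM in Il22r-/- and 5.99% ± 0.39 in Il22r+/+.

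In the mouse ovary Stc1 is known chiefly from theca and interstitial cells. Of the 5 theca markers, only Ptch1, a hedgehog receptor, was tested, and it was higher in Il22r-/- (63.9 ± 2.48 CPM, against 43.0 ± 1.72 CPM in Il22r+/+, edgeR adjusted p = 0.000149). The whole list, nearly all of it Ptch1, summed to 64.2 to 67.7 CPM in Il22r-/- and 41.9 to 45.0 CPM in Il22r+/+. The other 4 markers had few reads and went both ways. Gli1, a hedgehog target, had 40 reads in Il22r-/- and 12 in Il22r+/+. Lhcgr, the luteinising hormone receptor gene that mature granulosa cells also express, had 39 in Il22r-/- and 3 in Il22r+/+. By replicate 1 to 3, Lhcgr reads were 23, 13 and 3 in Il22r-/- and 0, 0 and 3 in Il22r+/+. Cyp17a1 had 2 reads in Il22r-/- and 4 in Il22r+/+, and Insl3 had 1 in Il22r-/- and 4 in Il22r+/+. The part of theca cells in the Stc1 level was not tested. An antisense gene, Gm41192, shares 5.46% of the Stc1 exon length and had 3, 5 and 3 reads in Il22r-/- and 0 in each Il22r+/+ library, against 951 to 1150 Stc1 reads in Il22r-/-. The 3 protein-coding genes whose pattern over the 6 libraries was most like that of Stc1, among 10534 with a mean of at least 5 CPM, were Dsp, Zfp385b and Cables1, with root mean square differences of 0.20, 0.27 and 0.32 in centred log2 CPM. Dsp, which encodes a desmosome plaque protein, had 49.0 to 74.6 CPM in Il22r-/- and 3.82 to 4.92 CPM in Il22r+/+.

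Set against the protease they bind, the inhibitors shifted unequally. The ratio of Stc1 to Pappa in FPKM was 28.2, 21.7 and 35.6 in Il22r-/- and 1.12, 0.779 and 1.47 in Il22r+/+. The ratio of Stc2 to Pappa overlapped, at 20.8 ± 0.721 in Il22r-/- and 17.7 ± 5.97 in Il22r+/+. Igfbp4, the substrate, stood at 176 ± 29.1 times Pappa in Il22r-/- and 417 ± 125 times in Il22r+/+, without overlap. All these ratios rest on the low Pappa counts.

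**Figure D3:**
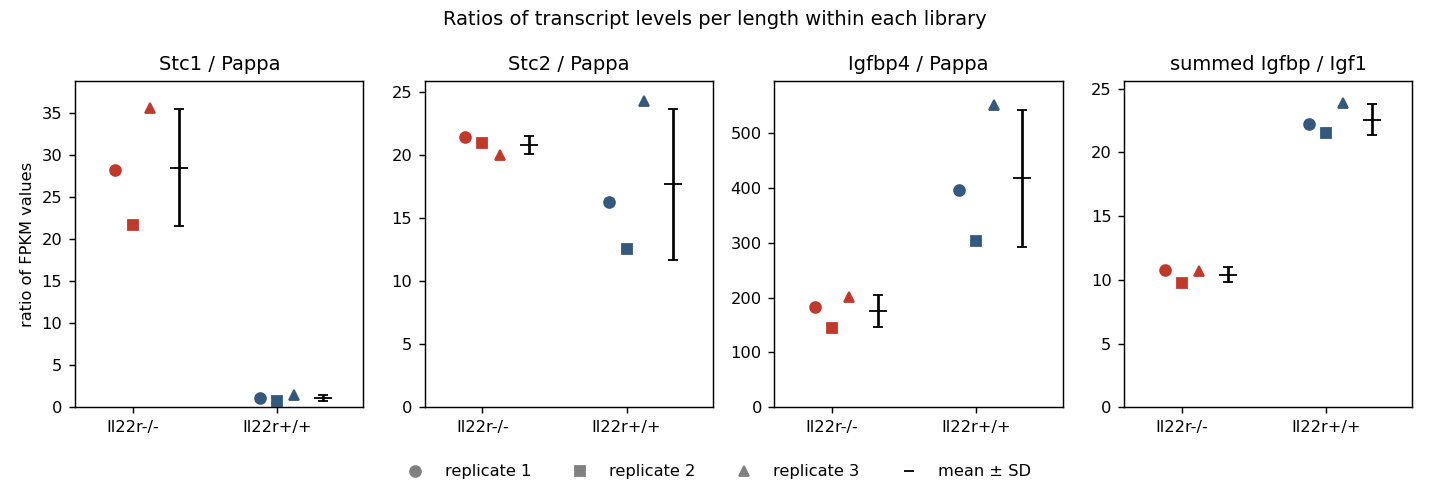
Ratios of FPKM values within each library (linear axes from 0), with Il22r-/- in red, Il22r+/+ in blue and the mean ± SD beside the points. Stc1 over Pappa is 21.7 to 35.6 in Il22r-/- and 0.779 to 1.47 in Il22r+/+, Stc2 over Pappa overlaps, and the ratios of Igfbp4 to Pappa and of summed Igfbp to Igf1 are lower in Il22r-/-.

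Of the 10 genes, 2 were past the edgeR threshold in the higher direction (Igf1r and Stc1) and 7 in the lower, Igfbp7 being the exception, and 9 of 10 did not overlap between genotypes. Among all tested genes 45.7% were past the threshold and 56% did not overlap. As the set was chosen with this contrast known, nothing is read from these counts. The spread within a genotype differed between members: in log2 CPM the SD of Igfbp2 was 0.49 in Il22r-/- and 0.07 in Il22r+/+, and that of Igfbp7 was 0.46 in Il22r-/- and 0.16 in Il22r+/+, whereas Pappa spread more in Il22r+/+ (0.17 in Il22r-/- and 0.43 in Il22r+/+). The median SD over all tested genes was 0.16 in Il22r-/- and 0.11 in Il22r+/+.

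**Figure D4:**
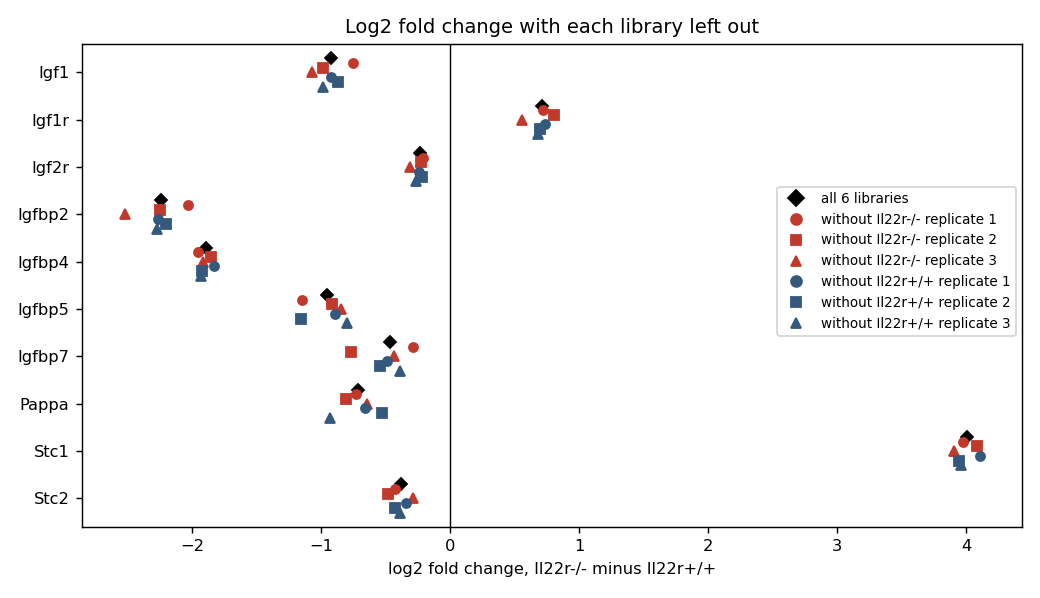
Log2 fold change, Il22r-/- minus Il22r+/+, of the 10 genes with all 6 libraries (black) and with each library left out (red for Il22r-/- libraries, blue for Il22r+/+ libraries). No gene changes side of 0; Stc1 stays between 3.91 and 4.11, and Igfbp7 has the largest relative spread, from -0.77 to -0.28.

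A further 51 genes of the IGF pathway, listed by role, were put through the same fit. This list too was drawn up with earlier results of these data known, so its adjusted p-values are no independent evidence. Of the 40 with enough reads, 9 rose and 9 fell in Il22r-/-, or 45% called beside 45.7% of all tested genes, and their median log2 fold change was -0.08 beside 0.03 for all tested genes. Igf2 had 0 reads in Il22r-/- and 1 in Il22r+/+, Ins2 had 0 in Il22r-/- and 1 in Il22r+/+, and Ins1 and Igfbp1 had none, where a count of 0 over the libraries of a genotype allows up to 0.0586 CPM for Il22r-/- and 0.057 CPM for Il22r+/+ (3 counts, counting error only). Insrr, Igfals and Igfbpl1 had 6 reads or fewer in all. Of the ligand transcripts of this pathway, Igf1 was therefore the one measurable here.

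**Figure D5:**
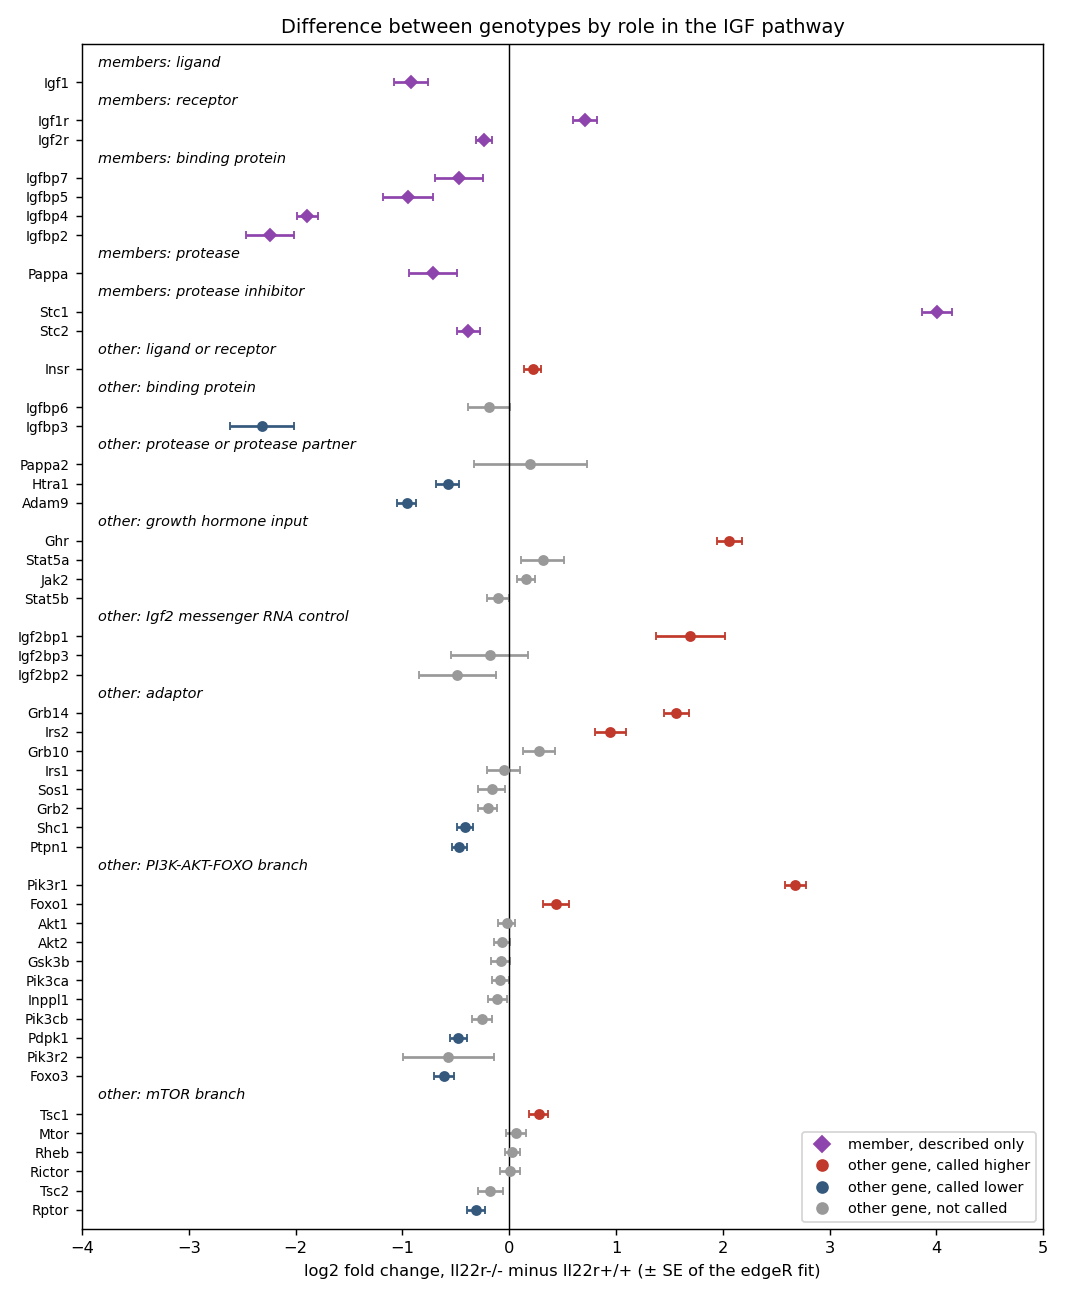
Log2 fold change, Il22r-/- minus Il22r+/+, with the SE of the edgeR fit as bars, for the 10 members (purple diamonds, described only) and 38 other tested IGF pathway genes (circles; red called higher, blue called lower, grey not called), grouped by role. Stc1 at 4.01 lies farthest to the right, followed by Pik3r1 at 2.68 and Ghr at 2.06, and Igfbp3 at -2.31 lies farthest to the left.

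Outside the 10, 1 of 2 tested binding protein genes and 2 of 3 tested protease genes fell, and 0 rose. Among all tested genes 22.1% were lower and 23.6% higher, and so few genes show no direction for these roles. Igfbp3, the main carrier of IGFs in blood, fell to 1.66 ± 0.739 CPM in Il22r-/-, against 8.33 ± 1.68 CPM in Il22r+/+ (log2 fold change -2.31 ± 0.30, edgeR adjusted p = 0.000137). Igfbp6, which prefers IGF-2, averaged 10.7 ± 2.80 CPM for Il22r-/- against 12.2 ± 1.77 CPM for Il22r+/+ and was not called (edgeR adjusted p = 0.467). Adam9 and Htra1, proteases that can cut IGFBP-5, fell by 0.96 ± 0.09 and 0.58 ± 0.10 on the log2 scale (edgeR adjusted p = 1.69e-05 and 0.00117). Pappa2, the paralogue of Pappa, had 33 reads in Il22r-/- and 27 in Il22r+/+ and was not called (edgeR adjusted p = 0.786). Prg2, whose proform inhibits PAPP-A in the human placenta, was too scarce to be tested, at 17, 7 and 12 reads for Il22r-/- against 1, 0 and 0 for Il22r+/+ (ratio 37, exact 95% interval 6.24 to 1500 for counting error). Adam12, a protease that can cut IGFBP-5 and likewise not tested, had 29 reads for Il22r-/- against 3 for Il22r+/+ (ratio 9.94, exact 95% interval 3.08 to 51).

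Genes that feed or carry the receptor signal included the largest rises of the list. Ghr, the growth hormone receptor, rose to 162 ± 23.6 CPM in Il22r-/-, against 38.9 ± 4.0 CPM in Il22r+/+ (log2 fold change 2.06 ± 0.12, edgeR adjusted p = 7.90e-07), while Jak2, Stat5a and Stat5b, which carry its signal, were not called. Pik3r1, the regulatory subunit of phosphoinositide 3-kinase, rose to 859 ± 73.1 CPM in Il22r-/-, against 134 ± 7.46 CPM in Il22r+/+ (2.68 ± 0.10, edgeR adjusted p = 3.45e-08). Its Il22r-/- libraries, at 774.4 to 902.7 CPM, lay far above those of Il22r+/+, at 127.7 to 142.3 CPM. Grb14, an adaptor that restrains the insulin receptor, rose to 619 ± 101 CPM in Il22r-/-, against 209 ± 16.3 CPM in Il22r+/+ (1.56 ± 0.12, edgeR adjusted p = 4.20e-06). Irs2, a docking protein of the insulin and IGF-1 receptors, rose by 0.95 ± 0.14 on the log2 scale (edgeR adjusted p = 0.000646), and Irs1 was not called (50.1 ± 12.0 CPM in Il22r-/- and 51.7 ± 4.33 CPM in Il22r+/+). Igf2bp1, an RNA-binding protein of the Igf2 messenger, rose on few reads, 132 for Il22r-/- against 39 for Il22r+/+ (1.69 ± 0.32, edgeR adjusted p = 0.00163).

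The remaining signalling genes changed less. Among adaptors Ptpn1, the phosphatase of the insulin receptor, and Shc1 fell by 0.47 ± 0.07 and 0.41 ± 0.08 on the log2 scale (edgeR adjusted p = 0.00035 and 0.00146). In the PI3K-AKT-FOXO branch 3 of 13 tested genes rose and 3 fell: beside Pik3r1, the transcription factor Foxo1 rose (0.43 ± 0.12), and Foxo3 (-0.61 ± 0.10) and the kinase Pdpk1 (-0.48 ± 0.08) fell. Akt1, at 338 ± 25.5 CPM in Il22r-/- and 344 ± 13.5 CPM in Il22r+/+, was not called. In the mTOR branch Tsc1 rose by 0.28 ± 0.09, Rptor fell (-0.31 ± 0.08) and the other 4 were not called. The insulin receptor gene Insr was called higher (0.22 ± 0.08, edgeR adjusted p = 0.0437), but it lost the call when any 1 library was left out, with a log2 fold change of 0.14 without Il22r-/- replicate 3. Foxo1 lost its call without any 1 of the Il22r+/+ libraries (edgeR adjusted p = 0.0567 to 0.0603), and its log2 fold change was 0.24 without Il22r-/- replicate 3. Rptor was not called without Il22r+/+ replicate 1 (edgeR adjusted p = 0.0594). Tsc1 was not called without Il22r-/- replicate 1 or Il22r+/+ replicates 2 or 3 (edgeR adjusted p = 0.0824 to 0.115). Without Il22r-/- replicate 3, 15 of the listed genes were called lower and 8 higher.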

How the data were processed

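RNA from 6 libraries, 3 of Il22r-/- and 3 of Il22r+/+ granulosa cells, was analysed, each placed in its group by its title. The authors deposited raw read counts per gene, made with featureCounts 1.5.0-p3 on mm10 per the submitters' processing notes; which aligner, strand setting or read filter was used is not given here by labels or headers. FPKM values were deposited as well. Count over gene length and FPKM gave 1 constant per library, 0.936 to 1.05 times its total count, so the FPKM values came from the same counts with a rescaled total. They served for levels between genes and as an alternative test.

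Genes kept by filterByExpr (15227) were TMM-normalised and fitted with the robust quasi-likelihood test of edgeR 4.0.16 in R 4.3.3, genotype being the only term, with Benjamini-Hochberg adjustment over all tested genes. Calls were made below an adjusted p of 0.05. The step was tested on simulated counts with 200 changed genes. Replicates of a genotype differed by more than sampling noise (chi-square per gene 4.70 to 27.2), so none was counted as a duplicate. The likeness to Stc1 and the SD in log2 CPM used a pseudocount of 0.5 CPM.

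The members, the pathway list and the marker lists were chosen with earlier results of these data known. All 10 members are named, with every listed ligand, receptor, carrier and protease, up to 3 called genes per direction in other roles, the 3 genes most like Stc1 and the most abundant gene of each marker list. Fshr, Amhr2, Nr5a2, Inhba, Foxl2, Nr5a1, Cyp19a1, Gli1, Lhcgr, Cyp17a1, Insl3, Krt7, Krt19, Dcn, Col1a2, Tcf21, Pdgfra, Lum and Col1a1 were named in addition, as were uncalled genes of a few roles, after their values were seen. Some tested genes are counted but not reported here by name. Start, end and exon length of all 10 members were the same in GENCODE M21 (mm10) as in the files. Alternatives were DESeq2 1.42.0, limma-voom (limma 3.58.1), other scalings and filters, limma on FPKM in log2 with 1 or 0.1 added, a replicate block and leaving out each library.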

Additional observations from a re-analysis of the deposited data

How the results depend on the processing

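All 10 members kept the sign of their log2 fold change under every alternative run. The number past the threshold, 9 in the fit reported, was 10 with the DESeq2 Wald test and 7 with library size alone (without Igf2r, Igfbp7 and Stc2) and with unfiltered log2(FPKM + 1). With 1 library left out it was 6 to 8, and the number lower was 4 to 6; the lowest came without Il22r+/+ replicate 1, where Igf2r, Igfbp7, Pappa and Stc2 were not past it, and the cause was not tested. Igf2r missed the threshold in 5 of 6 such fits and with the replicate block, Pappa also without Il22r+/+ replicate 2 and on FPKM, Stc2 also on unfiltered FPKM, and Igfbp5 without Il22r-/- replicate 2 or 3 and with no filter. Adding 1 to FPKM moved Stc1 to 2.99 and Pappa to -0.29, since the pseudocount is near or above their level in Il22r+/+. For the 51 further pathway genes, 13 to 22 were called under the alternatives that kept all libraries and 14 to 23 with 1 left out, where the number lower was 8 to 15 and the number higher 6 to 9; the 15 lower came without Il22r-/- replicate 3, and the cause was not tested. Insr and Tsc1 were also not called with the DESeq2 Wald test and on FPKM (adjusted p = 0.0536 to 0.183), nor were Foxo1 and Rptor on unfiltered FPKM (0.111 and 0.0558), nor Insr with DESeq2 size factors (0.0707) or the replicate block (0.0742). Across all genes 5594 to 7476 were called with all libraries and 5411 to 8243 with 1 left out. Library size as the only scaling put 63.6% of calls on the higher side, against 51.6% with TMM, and shifted the median log2 fold change by 0.103, so small differences are relative to TMM. Deviations of same-numbered libraries correlated at -0.04 to 0.03, and 1 of 3 Il22r-/- libraries correlated best with its own number. So few libraries cannot settle whether equal numbers mark a pairing, and the labels do not say. A replicate block gave 6405 calls in all, 8 members and 19 pathway genes. Depth limits Pappa, Pappa2, Prg2 and Igf2bp1, which had few reads.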
